A study of Mus musculus with 36 samples.

Results

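The 10 genes described here are 7 EphA receptors (Epha3, Epha4, Epha5, Epha6, Epha7, Epha8 and Epha10) and 3 ephrin-A ligands (Efna2, Efna3 and Efna5), taken by name as retinotopic mapping genes. All 10 were found among the 55359 genes of the deposited table, and each was followed through all 36 cells. Each cell is 1 neuron of the mouse midbrain, picked from a clone, the descendants of 1 radial glia progenitor coloured by MADM (mosaic analysis with double markers, a recombination method) on embryonic day 12. There were 18 clones of 2 cells, and the cells of a clone are called siblings. Every cell carried the reporter written M11GTTG in the labels. In 11 clones (22 cells) recombination was induced with Fz10-CreER and in 7 clones (14 cells) with Sox2-CreER, and the labels say no more of the cells that these drivers mark. By tissue label 22 cells came from sSC (15 of Fz10-CreER and 7 of Sox2-CreER clones) and 12 from dSC (7 and 5). The tissue names are read here as superficial and deep superior colliculus. The other 2 cells came from PAG, read as periaqueductal grey, and both belong to Sox2-CreER clones. The mice were of a mixed C57/Bl6, FVB and CD1 background. The labels state an age range for experiments from embryonic day 9.5 to postnatal day 30, without the age of each cell, and they do not name animals.

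EphA receptors are tyrosine kinases of the cell surface, and their ephrin-A ligands are held on the membrane of a neighbouring cell by a lipid anchor. Contact between them signals in both directions and often makes a growing axon turn away. In the superior colliculus, ephrin-A gradients along the anterior to posterior axis place the axons of retinal ganglion cells, whose EphA levels are also graded. Collicular neurons carry EphA receptors of their own, in a gradient that runs against that of the ligands. The labels do not give the position of a cell along this axis, so no gradient was examined here.

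The values are an expression signal, called TPM of exon plus intron by the authors. By that name it is scaled to gene length and keeps no read depth. How exon and intron reads were combined is not given in the sources used here, so the order of levels between genes given below holds on the deposited scale, and genes with very different introns may not be comparable on another. A gene was counted as detected at a signal of 1 or more. The number of genes detected in a cell ran from 2661 to 16769, with a median of 12058. The lowest value was that of the clone B cell in sSC, and the next was 6180 in the clone H cell in sSC. A signal of 0 in a cell may be a failed capture: in the clone B cell of sSC 9 of the 10 genes were listed at 0. Of 6 neuronal markers a median of 6 were detected per cell, and their summed signal ran from 374.8 to 5192. Signal of other cell types was present too. The summed signal of 6 oligodendrocyte markers ran from 856 to 21062 and that of 8 microglial markers from 12.9 to 10509, and their part in the results below was not tested unless a value is given.

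Epha5, Epha10 and Epha4 were the receptors with the highest signal. Epha5, a receptor for several ephrin-A ligands, was the only one of the 10 genes detected in all 36 cells. Its signal lay between 11.1 and 150 (median 48.3), and no cell fell below 10. Epha10, whose kinase domain is held to be inactive, had the highest median, 64.9, and ran from 0 to 318.6 with 31 cells detected. The cell at 318.6 was the clone F cell in sSC. The order of Epha10 and Epha5 does not hold cell by cell: Epha10 exceeded Epha5 in 14 of 36 cells and Epha5 exceeded Epha10 in 22. Epha4, a receptor that binds ephrins of both the A and the B class, was detected in 34 cells. Its median was 48.0 and its highest signal 162, in the clone N cell numbered 2 of sSC. Epha4 was listed at 0 in both cells with the fewest genes detected. Epha5 exceeded Epha4 in 20 cells and the reverse held in 16, so these neighbours in the order are not separated.

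The other receptors formed a middle and a low level. Epha7, which in mouse is also expressed in collicular cells in a gradient, had a median signal of 17.3, was detected in 28 cells and reached 133 in the clone J cell of dSC. Epha4 exceeded it in 28 cells, and Epha7 was the higher in 6. Epha6 had a median of 12.9, a highest signal of 76.8 and 32 cells detected. Epha8, which is expressed in the developing tectum, and Epha3, which marks the temporal end of the retinal gradient in chick, were the lowest. Epha8 had a median of 1.26 with 18 cells detected and 10 cells at 10 or more. Epha3 had a median of 0.987 with 17 cells detected and 7 at 10 or more, and it was above 0 in 27 cells. Epha6 exceeded Epha8 in 28 cells against 7, whereas Epha8 and Epha3 stood at 16 cells against 15.

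Each of the 3 ligands had a median near that of Epha7 and Epha6. Efna5, the ligand that with Efna2 makes up the posterior ephrin-A of the mouse colliculus, had a median signal of 16.2 and was detected in 31 cells. Its highest value, 415.6 in the clone L cell of dSC, was the highest of any of the 10 genes in any cell. Efna2 had a median of 15.3 but was all or none: 14 cells were under 1, 3 lay between 1 and 10, and 19 were at 10 or more, up to 176. Efna3, which is expressed more evenly across the colliculus, had a median of 13.3, a highest signal of 79.5 and 30 cells detected. Efna5 exceeded Efna2 in 19 cells against 13, and Efna2 exceeded Efna3 in 17 against 15, so the ligands cannot be put in an order cell by cell. For Efna3 the signal may include its opposite-strand neighbour Gm15998, and Epha5, Epha6, Epha7 and Epha10 also overlap annotated genes on the opposite strand. Whether counting used strand is not given in the sources used here, so such reads cannot be told apart.

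**Figure D1:**
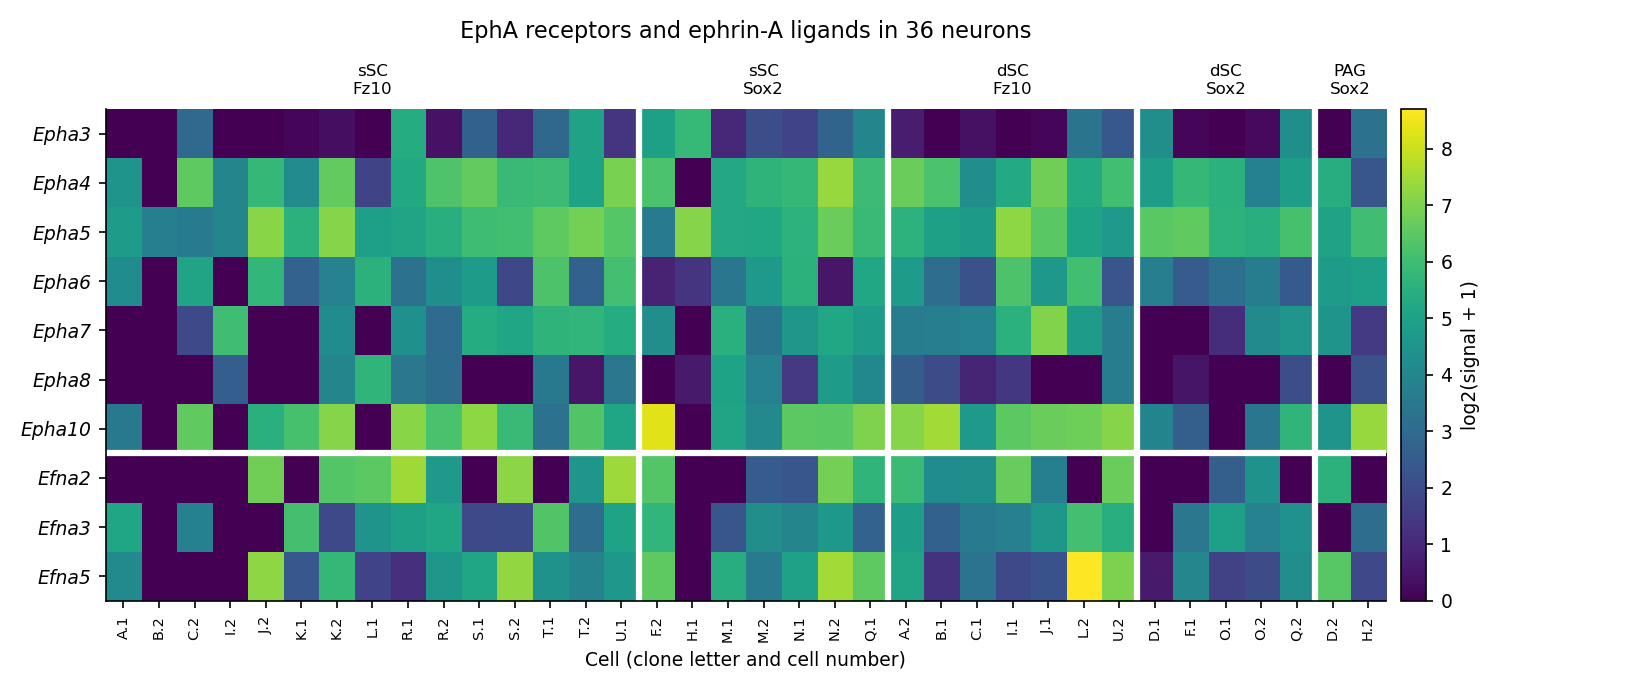
Signal of each of the 10 genes (rows) in each of the 36 cells (columns), as log2(signal + 1) on the colour scale, with cells ordered by tissue and driver. The Epha5 row holds no empty cell, the Efna2 row switches between 0 and high values, and the clone B cell of sSC is dark in 9 of 10 rows.

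Neurons carried several receptors and ligands at once. Cells had between 1 and 7 of the 7 receptors detected (median 6), and between 0 and 3 of the 3 ligands (median 3). A receptor and a ligand were detected together in 32 of 36 cells, and both were at 10 or more in 31. The summed receptor signal was above the summed ligand signal in 33 cells, with medians of 250.4 and 50.4. The exceptions were the clone L and clone U cells of dSC, with ligand sums of 484 and 273, and the clone S cell numbered 2 of sSC, with 304. Epha5 was the strongest receptor in 15 cells, Epha10 in 12, Epha4 in 5, Epha7 in 3 and Epha8 in 1. Efna5 was the strongest ligand in 13 cells and Efna2 and Efna3 in 10 each, while 3 sSC cells were at 0 for each ligand. In 1 of those 13, the clone D cell of dSC, Efna5 was at 0.549 and no ligand was detected. Among the 36 cells there were 19 different combinations of detected genes, and 33 when a signal of 10 was asked for.

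The first comparison asked whether the genes differ between the superficial and the deep colliculus, and no difference passed the test against the spread between clones. Values were averaged on the log2(signal + 1) scale over siblings in 1 tissue, which gave 16 sSC and 11 dSC clone means. In limma with Benjamini-Hochberg adjustment, 0 of 14613 genes passed an adjusted p of 0.05, which is 0%. At an unadjusted p under 0.05 there were 0 of the 10 genes against 5.16% of all genes. Adjusted p-values of the 10 lay between 0.971 and 0.997. The 2 low receptors had the highest estimates, with a difference of sSC minus dSC of 0.77 for Epha8 (95% interval -0.61 to 2.15) and 0.56 for Epha3 (-0.94 to 2.06). The lowest was that of Epha10 at -1.0 (-2.92 to 0.92), followed by Efna3 at -0.79 and Epha4 at -0.75. The signs of Epha3 and Epha4 turned, to -0.20 and 0.29, with the clone as a replicate block and the number of genes detected as a covariate. In the fit without block or covariate the receptor median was -0.34 and the ligand median 0.03, beside -0.31 for all genes tested. The median of all genes moved to -0.01 under quantile normalization and to 0.07 with the number of genes detected as a covariate. With that covariate and the replicate block, the receptor and ligand medians were -0.20 and -0.62, beside 0.07 for all genes. Intervals of this width leave differences of 2-fold or more undecided for each of the 10 genes.

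Within the tissues the ranges overlapped for every one of the 10 genes. Efna5 ran from 0 to 181 in sSC, with a median signal of 22.4, and from 0.549 to 415.6 in dSC, with a median of 6.26. The dSC group held both the highest Efna5 cell and a lower median. Epha8 had medians of 3.42 in sSC and 0.638 in dSC, and was at 10 or more in 9 and 1 cells. Epha5 had medians of 47.4 and 48.8 and ran from 11.1 to 142 in sSC and from 24.7 to 150 in dSC. In PAG the cells of clones D and H had Epha5 signals of 31.6 and 65.1 and Epha10 signals of 21.5 and 161. These cells differed in their ligands, since Efna5 was 86.0 in the clone D cell and 2.76 in the clone H cell.

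In 9 clones 1 sibling lay in sSC and the other in dSC. In these split clones Epha5 was the higher in dSC in 7 of 9, and Epha10, Efna3 and Efna5 in 6 of 9 each. Efna2 was the higher in sSC in 5 of 9. With the clone as a replicate block the tissue differences were -2.08 for Epha10, -1.62 for Epha7 and -1.32 for Efna3, with adjusted p-values of 0.619, 0.657 and 0.651. In that fit 1 of 14613 genes (0.00684%) was called, Lst1, which is none of the 10 and was named after its value was seen. The median of all genes was then -0.66, and with the number of genes detected added, the Epha10 difference was -0.59.

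The second comparison set Fz10-CreER against Sox2-CreER clones among sSC cells, over 11 and 5 clone means. Again 0 of 14320 genes (0%) passed the adjusted threshold. Epha3 was the one of the 10 with an unadjusted p under 0.05, against 4.1% of all genes (3.85% in the same direction, lower in Fz10-CreER clones). In the 15 sSC cells of Fz10-CreER clones Epha3 had a lowest signal of 0, a median of 0.337 and a highest of 40.5, and 6 of them were detected. In the 7 sSC cells of Sox2-CreER clones the lowest was 0.995, the median 6.01 and the highest 56.5, and 6 of 7 were detected. The ranges overlapped, but none of the Sox2-CreER cells was at 0 and 5 of the Fz10-CreER cells were. Among those 5 was the clone B cell, with 2661 genes detected. The median number of genes detected was 11544 in the Fz10-CreER cells and 13450 in the Sox2-CreER cells. Over the 22 sSC cells Epha3 had a Spearman rho of 0.41 with that number. Over clones the log2 means were 1.21 ± 1.49 (SD, n = 11) and 3.72 ± 1.80 (SD, n = 5). The difference was -2.51 (SE 0.99, limma unadjusted p 0.0162, adjusted p 1.00), and it lay between -3.06 and -1.98 when each clone was left out in turn. Markers of other cell types were compared in the same cells. None of the 4 haemoglobin genes or the 7 astrocyte markers had a limma unadjusted p under 0.05. All 7 astrocyte markers had a negative estimate (median -1.50, beside -0.38 for all genes), and 3 of 4 haemoglobin genes a positive one (median 1.37). Of 4 endothelial and mural markers tested, 2 had a negative estimate and 1 had an unadjusted p under 0.05. The summed signal of 4 haemoglobin genes had a median of 1041 (0 to 9623) in the Fz10-CreER cells and 77.5 (46.9 to 6691) in the Sox2-CreER cells, and that of 7 astrocyte markers had medians of 378 (99.4 to 1020) and 707 (213 to 813). Epha3 had a Spearman rho of 0.48 with the first sum and 0.43 with the second over the 36 cells. With the sum of 5 endothelial and mural markers the rho was 0.42. These 3 lists had the highest rho with Epha3. For oligodendrocyte precursor, oligodendrocyte, neuronal and microglial markers the rho was 0.19, 0.05, 0.04 and -0.16. Negative estimates were held by 3 of 3, 4 of 6, 5 of 6 and 1 of 8 of these markers. None of them had a limma unadjusted p under 0.05. The part of these signals in the Epha3 difference was not tested.

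The other 9 genes had intervals that include 0 in this comparison. Efna5 had a difference of -1.57 (95% interval -4.25 to 1.11) and Epha6 of 0.89 (-1.51 to 3.28). The signs of Epha4, Epha5, Efna2, Efna3 and Epha10 turned under at least 1 other way of processing, so no direction is given for them.

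**Figure D2:**
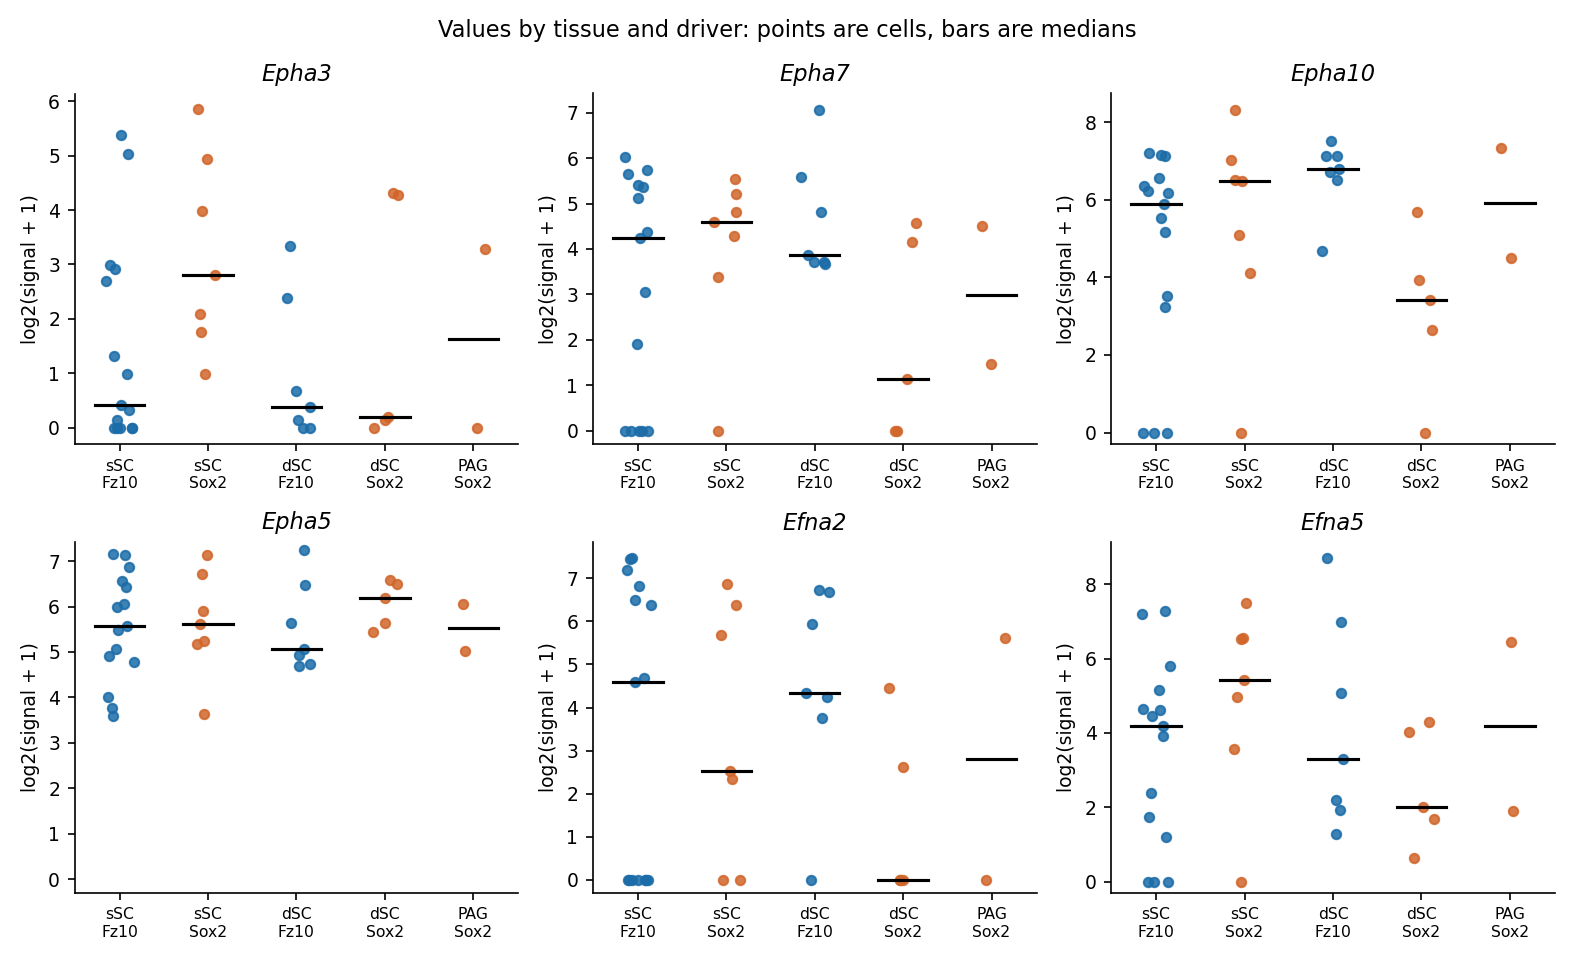
log2(signal + 1) of Epha3, Epha7, Epha10, Epha5, Efna2 and Efna5 by tissue and driver, with 1 point per cell and the median of each group as a bar. In dSC the Epha10 points of Fz10-CreER clones, at 24.5 or more as a signal, lie above 4 of the 5 points of Sox2-CreER clones, whereas in sSC the drivers overlap.

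Among dSC cells the drivers stood further apart for 3 of the genes, a comparison added after the values had been seen. Epha10 had signals of 0, 5.23, 9.58, 14.2 and 50.8 in the 5 cells of Sox2-CreER clones. In the 7 cells of Fz10-CreER clones it ran from 24.5 to 180 with a median of 110. One Sox2-CreER cell, that of clone Q at 50.8, lay within the Fz10-CreER range. Efna2 was listed at 0 in 3 of the Sox2-CreER cells and was 5.16 and 20.9 in the others, both of clone O. In the Fz10-CreER cells the range was 0 to 104 around a median of 19.4, and 6 of 7 were detected. Epha7 was 0, 0, 1.19, 16.7 and 22.8 in Sox2-CreER cells and ran from 11.8 to 133 in Fz10-CreER cells, with a median of 13.5.

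Over 7 and 4 clone means the difference of Fz10-CreER minus Sox2-CreER in dSC was 3.15 for Epha10 (95% interval 1.19 to 5.10, limma unadjusted p 0.00307), 3.64 for Efna2 (0.77 to 6.52, p 0.0155) and 2.83 for Epha7 (0.26 to 5.40, p 0.0327). None passed the adjustment, with an adjusted p of 0.903 for each. These are 3 of the 10 genes past an unadjusted 0.05, all higher in Fz10-CreER clones, beside 3.78% of all genes in that direction, and the median of all genes was 0.37. The differences stayed within 2.55 to 3.88 for Epha10, 3.28 to 4.53 for Efna2 and 2.23 to 3.75 for Epha7 as each clone was left out. With adjustment 1 of 16310 genes (0.00613%) was called, Gm17122, named after its value was seen. Among markers of other cell types 0 genes were called in each list. Estimates were of 1 sign for the oligodendrocyte, microglial and haemoglobin lists and mixed for the others. Of 7 astrocyte markers 5 had a positive and 2 a negative estimate, and of 3 oligodendrocyte precursor markers 2 and 1. Of 5 endothelial and mural markers 2 were positive and 3 negative, with 1 past an unadjusted 0.05. All 6 oligodendrocyte markers had a negative estimate (median -0.95, 1 of 6 past an unadjusted 0.05), and their summed signal ran from 894 to 7610 (median 2627) in the Fz10-CreER cells and from 4101 to 7205 (median 6011) in the Sox2-CreER cells. All 8 microglial markers had a positive estimate (median 1.12, none past an unadjusted 0.05), with sums of 829 to 9588 and 55.7 to 10509. All 4 haemoglobin genes had a negative estimate (median -1.41, none past an unadjusted 0.05), with sums of 4.72 to 5158 and 152 to 5533. The sums overlapped between the drivers for each list, and their part in the differences of Epha10, Efna2 and Epha7 was not tested.

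The difference between the tissues in the driver effect was tested as an interaction over 27 clone and tissue means. It was -4.30 for Epha10 (SE 1.91, limma unadjusted p 0.0308, adjusted p 0.827), -3.78 for Epha7 (SE 1.79, p 0.0414, adjusted p 0.831) and -3.96 for Efna2 (SE 2.08, p 0.0647, adjusted p 0.869). The median of all genes was -0.80 and moved to 0.02 under quantile normalization. The 3 genes were picked by their driver differences in dSC, which are part of the interaction. Their low interaction estimates were thus partly set by that choice and are no separate support. With the clone as a replicate block they were -7.17, -4.99 and -7.59, with an adjusted p of 1.00 each. Only the 9 split clones inform that fit, and those of Sox2-CreER among them are F and Q alone. In clone F Epha10 was 318.6 in the sSC cell and 5.23 in the dSC cell. Past an unadjusted 0.05 were 2 of the 10 genes in the unblocked fit, Epha10 and Epha7, both negative, beside 5.38% of all genes in that direction. With adjustment 1 of 14613 genes (0.00684%) was called, again Gm17122, and with the block none (0%).

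The third comparison asked whether siblings resemble each other. Likeness was measured by the intraclass correlation over 16 clones with both cells in sSC or dSC, which is 1 for identical siblings and negative when siblings differ more than cells of different clones. It ran from -0.48 for Efna2 to 0.25 for Epha5, with 0.19 for both Efna3 and Efna5, and the median over all genes was 0.05. In limma's moderated F test the adjusted p-values of the 10 genes lay between 0.715 and 0.967, and none had an unadjusted p under 0.05, against 7.8% of all genes. The threshold was passed by 3 of 15132 genes (0.0198%), Eif2s3y, Gm45016 and Rps3a3, which were named after their values were seen. Of the signalling partners listed further on, Adam10 had 0.64 and Ngef 0.53, with adjusted p-values of 0.478 and 0.507.

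Efna2 stood at the low end of the table in this measure, with 0.9% of genes below it. In 12 of 18 clones 1 sibling had Efna2 at 1 or more and the other did not, in 5 both had it, and in clone H neither did. Among the 612 pairs of cells from different clones this kind of split was seen in 48.4%. In clones A, B, C and I the dSC sibling had signals of 60.3, 17.99, 19.4 and 102 and the sSC sibling was at 0. In clones F, L and Q the sSC sibling had 82.2, 89.9 and 50.4 and the dSC sibling was at 0. Clones K, S and T were split within sSC, with 82.1, 146 and 23.01 in 1 cell and 0 in the other, as was clone M with 4.78. In clone D the PAG cell had 47.6 and the dSC cell 0. The mean gap between siblings was 4.39 ± 2.15 (SD, n = 18) on the log2 scale, and that between cells of different clones 3.30. The F test asks only for likeness, and it gave Efna2 an adjusted p of 0.967, so an excess of split pairs was not tested.

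For the other genes the mean sibling gap lay on both sides of the gap between clones. It was 1.03 ± 0.92 (SD, n = 18) for Epha5 against 1.17, and 3.06 ± 2.57 for Epha10 against 2.65. Siblings had the same strongest receptor in 2 of 18 clones, O and T, where both had Epha5, while 29.7% of pairs from different clones did. They had the same strongest ligand in 4 of 18 clones, Efna5 in each, against 26.8% of such pairs. In clone D, 1 of these 4, the dSC cell had Efna5 at 0.549, which is below detection. Both siblings had a ligand above 0 in 15 of 18 clones. The full set of detected genes was shared by the siblings of 1 clone. Siblings differed at 2.94 of the 10 genes on average and cells of different clones at 2.96.

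**Figure D3:**
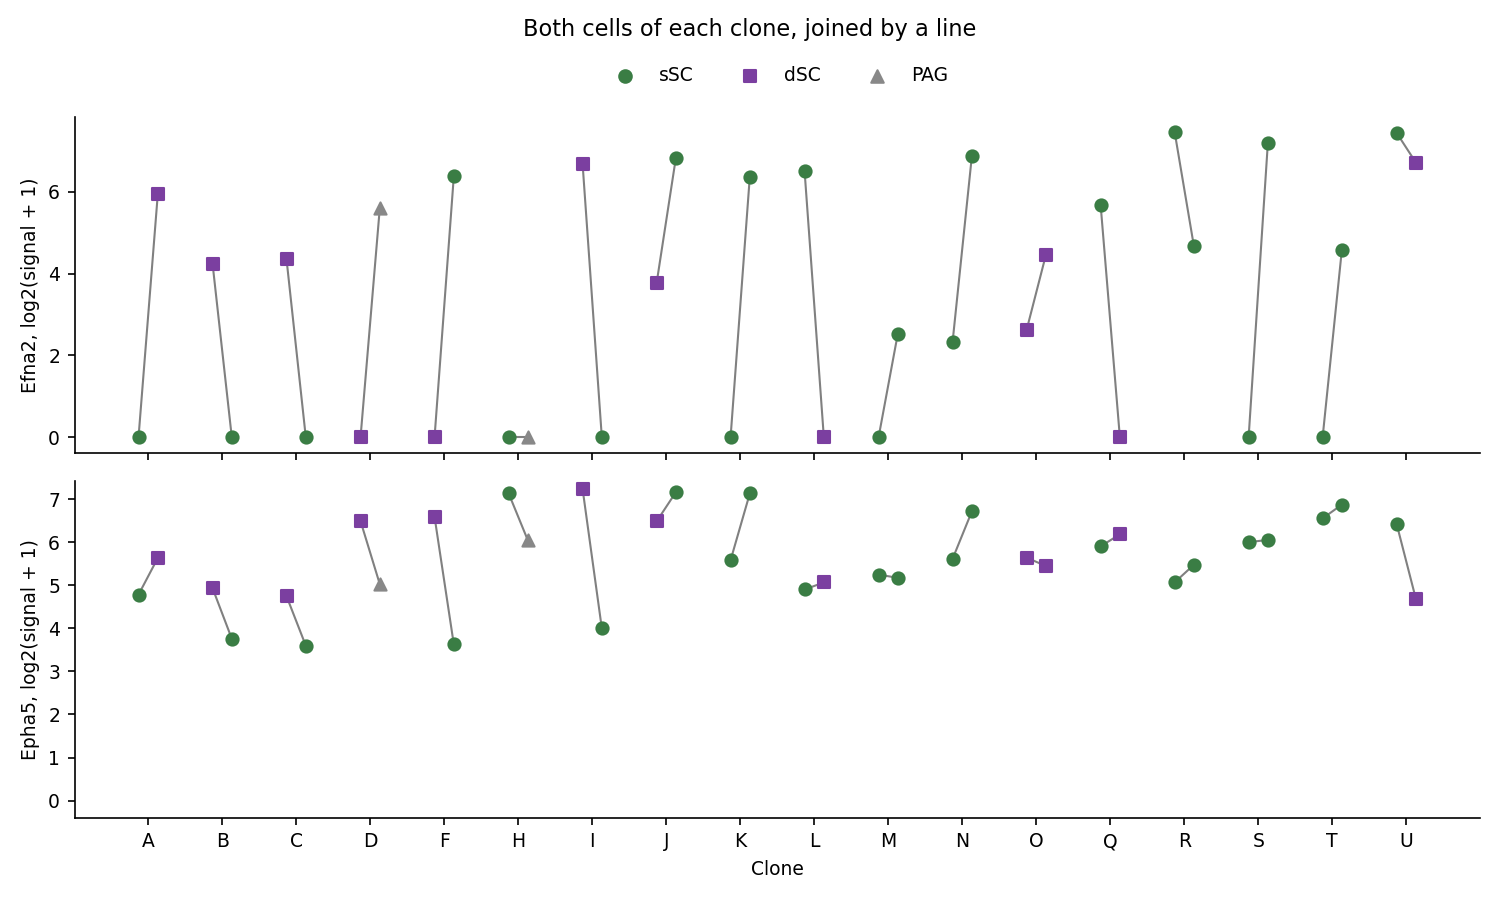
log2(signal + 1) of Efna2 (upper panel) and Epha5 (lower panel) in both cells of each of the 18 clones, joined by a line, with symbols for the tissue of each cell. Efna2 lines drop to 0 in 12 clones with the other sibling at 1 or more, whereas Epha5 is above 0 in both cells of each clone.

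The fourth comparison set the genes beside the transmitter markers, Slc17a6, the vesicular glutamate transporter of excitatory midbrain neurons, and Gad1, Gad2 and Slc32a1, which make and load GABA. Transmitter balance is the mean log2(signal + 1) of the GABA genes minus that of Slc17a6, and its slope was fitted with the clone as a replicate block and tissue as a covariate over 18 clones. The slope of Epha5 was -0.10 per log2 unit of balance (95% interval -0.23 to 0.02, limma unadjusted p 0.0886, adjusted p 1.00). Without the block, but with a correlation between siblings fitted instead (0.037), it was -0.12 (-0.20 to -0.03, limma unadjusted p 0.011, adjusted p 0.736). That does not pass the adjustment either. All slopes given as without the block are from this fit. The slopes of the other 9 genes lay between -0.06 for Epha6 and 0.10 for Epha3, and each interval included 0. Without the block the Epha3 slope was -0.018. With adjustment 3 of 14902 genes (0.0201%) were called. They were Slc17a6 and Gad1, which define the balance, and Nrn1, named after its value was seen. None of the 10 genes had an unadjusted p under 0.05, against 4.42% of all genes.

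Over single cells Epha5 followed Slc17a6. In the 6 cells with Slc17a6 listed at 0, Epha5 signals were 11.1, 12.5, 15.02, 24.7, 29.6 and 48.6. In the cells with Slc17a6 above 400, from clones U, N, A and J, Epha5 was 84.8, 104, 26.5, 88.4 and 142, where the last 2 are the siblings of clone J. The clone A cell of sSC was thus low in Epha5 although its Slc17a6 signal was 424.7. Spearman's rho of Epha5 with Slc17a6 was 0.55 and Pearson's r 0.60 over the 36 cells. The Spearman value was 0.46 in the 22 sSC cells, 0.77 in the 12 dSC cells and 0.58 after the number of genes detected was taken out. Of 11077 genes detected in at least 18 cells, 0.226% had a rho with Slc17a6 as high. With Gad1 the rho of Epha5 was -0.38. These values carry no test: each cell is a library of its own, but the 36 cells are pairs of siblings from 18 clones and differ in the number of genes detected. Epha6 had a rho of 0.28 with Slc17a6 and Efna5 of 0.22, and Epha4, Epha3, Epha7, Epha8, Epha10 and Efna3 lay between -0.09 and 0.10. By tissue, Efna5 with Slc17a6 had 0.51 in sSC cells, above the 0.46 of Epha5 there, and -0.11 in dSC cells. Efna2 with Slc17a6 had 0.43 in sSC and -0.44 in dSC cells.

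**Figure D4:**
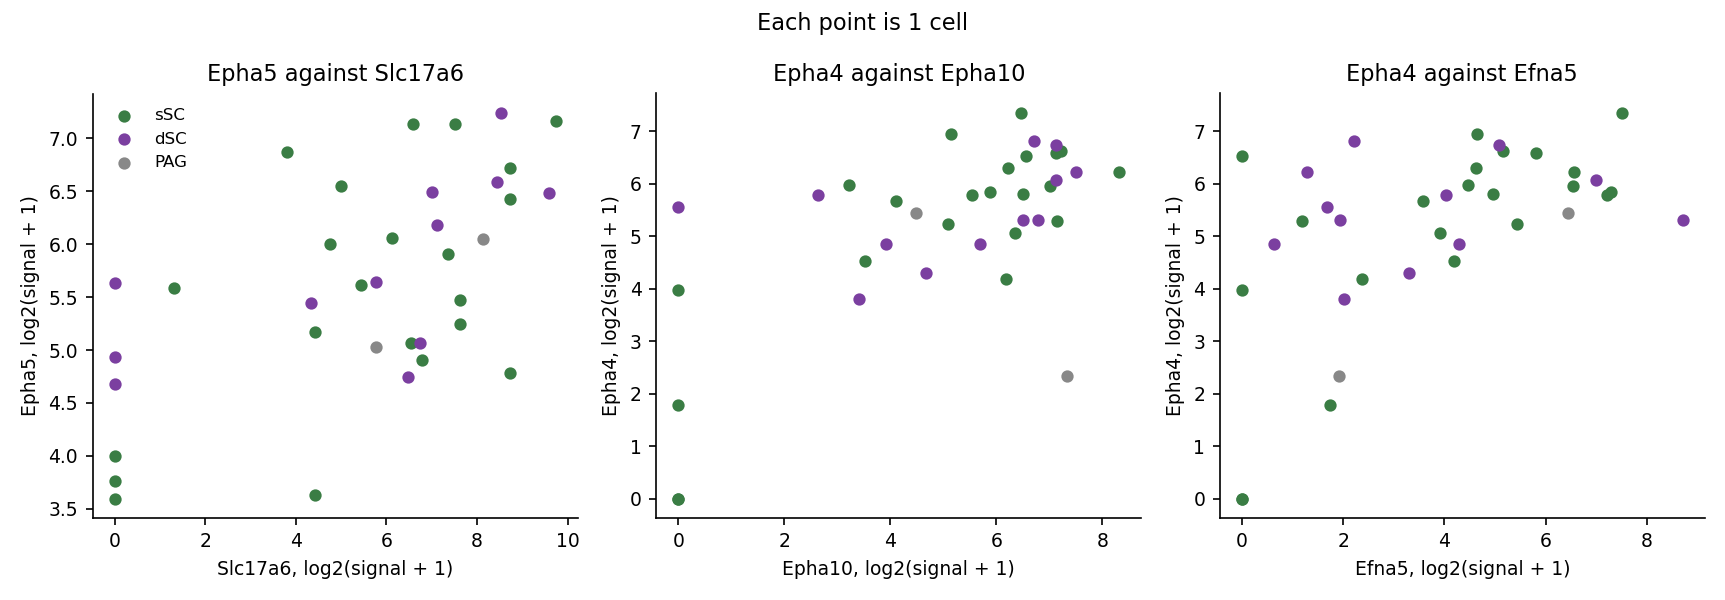
Each point is 1 cell, coloured by tissue, on log2(signal + 1) axes: Epha5 against Slc17a6, Epha4 against Epha10 and Epha4 against Efna5. Of the 4 cells lowest in Epha5, 3 have Slc17a6 at 0, and the low Epha4 cells are low in Epha10 except for 1 PAG cell.

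The 10 genes made 45 pairs, and 41 of them had a rho above 0 across the cells. The median rho was 0.17 for the pairs and 0.10 for all pairs of genes detected in at least 18 cells, of which 70.8% were above 0. It became 0.09 for the 10 genes, with 36 of 45 pairs above 0, after the number of genes detected was taken out. The median of all gene pairs was not computed in that way, so these adjusted values have no background beside them. Only 2 pairs reached 0.5, beside 1.14% of all gene pairs. Epha4 and Epha10 had a rho of 0.54 (0.65 in sSC, 0.55 in dSC, 0.54 after the number of genes detected), and Epha4 and Efna5 had 0.52 (0.62 in sSC, 0.20 in dSC, 0.44 after the number of genes detected). Without the clone B cell of sSC they were 0.50 and 0.48. Epha4 and Efna5 are a receptor and a ligand that it binds. The clone N cell numbered 2 of sSC was the highest sSC cell in both, with 162 for Epha4 and 181 for Efna5. Elsewhere in sSC high values did not always meet: the clone C cell had 91.4 for Epha4 and 0 for Efna5, the clone U cell 122 and 23.9, and the clone J cell 54.1 and 147. The pair with the lowest rho was Epha5 and Efna3, at -0.19.

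The promoters of 3 genes named in these patterns are shown. Epha4 and Efna5 are the receptor and ligand with a rho of 0.52 over all cells, though 0.20 in dSC. Epha5 is the gene detected in each cell. The window of Epha10, whose rho with Epha4 was 0.54, is not shown. Each run is the 250 bases before the RefSeq start on the gene's own strand (minus for all 3), in build GRCm38.p6, read 5′ to 3′. Capitals mark matches, searched on both strands, to 4 promoter motifs, none of which overlap here. They are the letters GGGCGG of the box bound by Sp1, the letters CCAAT of the box bound by NF-Y, the letters TATAAA bound by the TATA-binding protein, and the letters TAATTA that many homeodomain proteins bind.
Epha4, chr1:77515089-77515338: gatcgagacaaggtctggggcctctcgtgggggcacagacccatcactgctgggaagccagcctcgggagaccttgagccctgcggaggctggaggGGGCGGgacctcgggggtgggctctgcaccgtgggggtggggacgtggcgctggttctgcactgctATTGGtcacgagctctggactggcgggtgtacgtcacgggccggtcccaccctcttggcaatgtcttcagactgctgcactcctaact
Efna5, chr17:62881318-62881567: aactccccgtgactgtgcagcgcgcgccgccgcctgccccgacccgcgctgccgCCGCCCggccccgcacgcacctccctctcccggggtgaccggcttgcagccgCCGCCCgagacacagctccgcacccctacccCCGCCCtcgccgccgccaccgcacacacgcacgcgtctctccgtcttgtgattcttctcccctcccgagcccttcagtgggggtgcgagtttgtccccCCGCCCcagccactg
Epha5, chr5:84417383-84417632: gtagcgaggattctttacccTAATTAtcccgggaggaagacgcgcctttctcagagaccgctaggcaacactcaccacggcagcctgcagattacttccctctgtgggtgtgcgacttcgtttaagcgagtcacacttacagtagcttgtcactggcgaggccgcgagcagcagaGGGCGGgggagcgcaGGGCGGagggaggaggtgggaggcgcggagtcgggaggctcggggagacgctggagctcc
The Efna5 window holds 4 matches to the Sp1 letters, that of Epha5 2 and that of Epha4 1, and 32.7% of 32851 promoter windows of this length hold at least 1. The Epha4 window has 1 match to the NF-Y letters, found in 33.9% of windows, and the Epha5 window 1 match to the homeodomain letters, found in 4.84%. The TATA letters, present in 12.4% of windows, were matched in none of the 3. The windows hold 32 CpG in Efna5, 20 in Epha5 and 14 in Epha4, beside a median of 6 over all windows. A match is a run of letters and not a measured site, and these data hold no binding or methylation.

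For each gene the genes of most similar pattern over the 36 cells were taken by Spearman's rho, among genes detected in at least 18 cells. For Epha4 they were Trpm3, a cation channel (0.73), and Kcnn2, a calcium-activated potassium channel (0.71). Epha5 was followed by Mycbp2 (0.66) and Ntrk3, the receptor for neurotrophin-3 (0.65). Epha10 was followed by Snap91, a clathrin adaptor of synapses, and Syvn1 (both 0.74), and Efna5 by Tmem178b and Ptprd, a receptor phosphatase (both 0.69). Efna2 had Ccnh and Sp4 (both 0.70). For Efna3 the second was Gm15998 (0.64), the gene that overlaps it on the opposite strand. Epha6 had Ssbp2 (0.69) and Gm15347 (0.65), Epha7 had Sec23b (0.67) and Thap4 (0.66), and Epha8 had Srebf1 (0.71) and Lig1 (0.68). Epha3 was detected in too few cells for this list. The highest rho out of 11077 is high by choice, so these values are a description of the cells and carry no test.

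The remaining A class genes were nearly absent. Efna4 was listed at 0 in all 36 cells, Epha2 was detected in 1 cell, Efna1 in 5 and Epha1 in 8. Epha1 reached 140 and Efna1 80.1 in single sSC cells. The B class, whose gradients map the other axis of the colliculus, was present in part. Ephb1 had a median signal of 25.3 with 30 cells detected, Ephb6 of 11.9 with 26, and Efnb3, Efnb2 and Ephb2 were detected in 24, 22 and 25 cells. The other 3 had a median of 0, with Efnb1 detected in 12 cells, Ephb3 in 6 and Ephb4 in 1. Of 23 genes that act downstream of EphA receptors, a median of 20 were detected per cell. They include Chn1, a Rac-inactivating protein needed for EphA4 signalling (median 150.4, 36 cells), Ngef, the exchange factor ephexin (25.4, 30 cells), and Vav3 (16.1, 29 cells), while Vav2 was detected in 11. Among the partners of ephrin-A, Ntrk2 had a median of 31.9 with 34 cells detected, Adam10, a protease that cuts ephrin-A, 16.3 with 27, and Ngfr was detected in 2 cells.

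None of these partner genes passed the adjusted threshold in any of the 4 comparisons. Between the tissues 7 of 23 downstream genes had a higher estimate in sSC and 16 in dSC, with a median of -0.43 beside -0.31 for all genes, and of 6 B class genes tested 2 had a higher estimate in sSC and 4 in dSC. Between the drivers in sSC 7 of 23 and 2 of 6 had positive estimates, with a median of -0.49 and -0.45 beside -0.38. On the transmitter balance 14 of 23 and 4 of 6 had positive slopes, with medians of 0.02 and 0.03 beside 0.00. Of 25 other mapping genes, 22 were tested between the tissues, of which 8 had a higher estimate in sSC and 14 in dSC. On transmitter balance 22 of the same list were tested, with 11 positive and 11 negative slopes. Of these 22 genes, 2 had an unadjusted p under 0.05, beside 4.42% of all genes. One was Pax7, a transcription factor of the dorsal midbrain, with a slope of 0.22 (limma unadjusted p 0.00431, adjusted p 0.713). In the clone comparison 4 of 23 downstream genes and 2 of 6 ephrin-A partners had an unadjusted p under 0.05, beside 7.8% of all genes, with median intraclass correlations of 0.22 and 0.27 beside 0.05. The B class had 1 of 6 (median 0.14) and the other mapping genes 0 of 22 (0.13). The 4 haemoglobin genes had 4 of 4 with a median of 0.54, and the oligodendrocyte markers 2 of 6 with 0.15. The median for haemoglobin signal was above those of the partner lists, and its part in them was not tested.

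**Figure D5:**
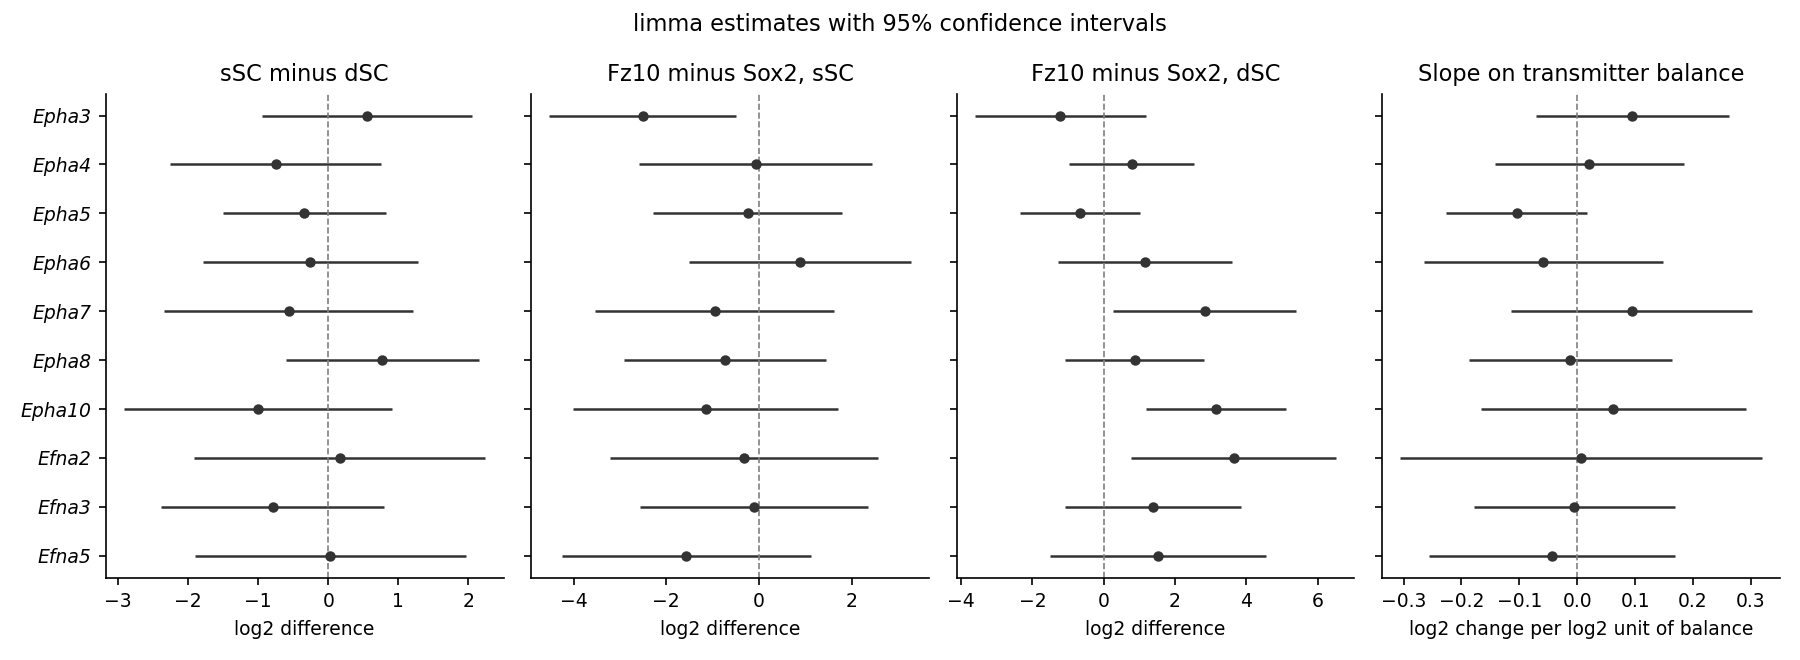
Estimates of limma for each of the 10 genes with 95% confidence intervals: tissue difference, driver difference in sSC, driver difference in dSC (all in log2 units) and slope on transmitter balance. Intervals that leave out 0 are those of Epha3 in the sSC driver panel and of Epha7, Epha10 and Efna2 in the dSC driver panel, and none of them passes the adjustment over all genes.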

How the data were processed

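The deposited table gives an expression signal per gene and cell, named TPM of exon plus intron by the authors. Each of the 36 cells sums to 2000000, the sum of 2 TPM scales, which plain TPM would not give, and they were handled as a normalised signal. Tests on a log scale had been planned for TPM and were kept for this unit. The submitters' processing notes name STAR 2.7.9a, R 4.0.3 and build GRCm39, and the labels' protocols name Takara's SMART-Seq Single Cell PLUS chemistry for polyadenylated RNA. How reads were counted, with which annotation and strand setting, is not given in the sources used here. Since depth cannot be read from the signal, no counting interval is given.

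Symbols came from GENCODE M21 by gene identifier (52083 genes), as did overlaps between genes, and promoter sequences from RefSeq (GRCm38.p6). The start of each printed promoter was checked against the annotated transcript. Tests used log2(signal + 1), which understates differences of low genes. A gene entered a test when at least 25% of its cells had 1 or more. limma 3.58.1 (R 4.3.3) was run with eBayes, trend and robust both on, and p-values were adjusted by Benjamini-Hochberg over all genes tested, with a threshold of 0.05. Clones are the replicates. Several clones may share an animal, so p-values measure the spread between clones. The fits were also run on simulated data with large added changes, which does not show how they handle smaller ones. Python 3.11.15, numpy 2.4.6, pandas 2.3.3, scipy 1.17.1 and matplotlib 3.10.9 were used for the rest.

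Siblings come from 1 animal by design, so the clone letter pairs them. In the 9 clones split between sSC and dSC the correlation of sibling deviations lay between -0.03 and 0.06, with 0 of 9 above 0.1. The members and lists were chosen with earlier results of these data known. The named genes are the 10 members, the 2 genes of most similar pattern for members detected in at least 18 cells, and examples from the lists. The comparison of drivers in dSC and the interaction were added after the values were seen. Alternatives changed the pseudocount, the filter, normalization, the covariate, the clone block, the measure of balance and the libraries used.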

Additional observations from a re-analysis of the deposited data

Results flagged for a closer look

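The clone means of each gene were looked at in 30 groups of 4 to 10 clones, and in 5 of them the highest or lowest clone stood far from the others by Dixon's criterion. The sSC cells of Fz10-CreER, with 11 clones, were over that limit and were not looked at for any gene. Chance flags about 1 in 20 groups of normally distributed values without ties. These means have a floor at 0 and some are tied there, so the 5 flags cannot be set against that share. Among sSC cells of Sox2-CreER, the clone H cell was at 0 for both Epha4 and Epha7 on the log2(signal + 1) scale, while the nearest of the other 4 clones was at 5.46 and 4.29. Both flags come from that 1 cell, which has 6180 genes detected, the second lowest number. Among dSC cells of Sox2-CreER, clone F had the highest Epha4 mean, 5.79, with the nearest other clone at 4.86. In the same group clone O was at 3.54 for Efna2 and the other 3 clones were tied at 0, which by itself produces a flag. Among dSC cells of Fz10-CreER, clone C had the lowest Epha10 mean, 4.67, with the nearest of the other 6 clones at 6.51.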

How the results depend on the processing

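No adjusted p of the 10 genes fell below 0.05 in any of the 4 planned comparisons or the 2 added ones, under any setting run. What changed were counts over all genes, the signs of estimates whose intervals include 0, and the number of cells with a gene detected: Epha3 in 17 cells at 1 or more, 7 at 10 or more and 27 above 0, and at 10 or more Epha6 in 20 instead of 32 and Epha8 in 10 instead of 18. The cause was not tested. Between sSC and dSC, 0 genes were called at first and 1 with a pseudocount of 10, with quantile normalization or with the clone as a replicate block. The tissue difference of Epha6 was 0.046 with a pseudocount of 10, 0.49 with quantile normalization, 0.12 with the number of genes detected as a covariate and 1.43 with that covariate and the replicate block. The last fit also gave -0.20 for Epha3, 0.29 for Epha4 and -0.62 for Efna5, and the replicate block alone gave -0.77 for Efna5. A pseudocount of 0.1 gave -0.070 for Efna2 and -0.58 for Efna5, and the covariate alone gave 0.017 for Epha7.

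Between drivers in sSC, 1 gene was called with a pseudocount of 10 and 0 to 5 as each clone was left out (5 without clone H and 1 without clone F). Epha4 was 0.24 with a pseudocount of 0.1, 0.23 with quantile normalization, 1.03 with the covariate and 0.40 without the clone B library, and lay between -1.29 and 0.40 as clones were left out. Efna2 was 0.058 with a pseudocount of 10, 0.14 with quantile normalization, 0.35 with the covariate and 0.0066 without clone B, and lay between -1.22 and 0.38. Efna3 was 0.033, 0.74, 0.63 and 0.20 in the same order, and lay between -0.91 and 0.52. Epha5 was 0.20 with quantile normalization and between -0.74 and 0.14 as clones were left out, and Epha10 was 0.029 with the covariate.

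In dSC 1 gene was called between the drivers, 0 without trend and robust fitting, and 0 to 2 as clones were left out (0 without clone D or F, 2 without L or Q). For the interaction 1 gene was called, and 0 with a pseudocount of 10, no filter, quantile normalization, the covariate, without clone B, without trend and robust fitting or with the replicate block, and 0 to 1 as clones were left out. The interaction of Epha3 was 0.054 with quantile normalization, that of Epha4 0.65 with the covariate, and that of Epha6 0.039 with quantile normalization, 0.69 with the covariate, 0.11 without clone B and between -0.82 and 0.50 as clones were left out. That of Epha5 lay between -0.21 and 0.83.

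The clone effect called 3 genes, 6 with a pseudocount of 0.1, 60 without the filter and 1 without trend and robust fitting. The transmitter slope called 3 genes, 1 with a pseudocount of 0.1 or with Slc17a6 alone, 8 with a pseudocount of 10 or quantile normalization, 9 with the covariate, 5 without clone B and 16 without the replicate block. The slope of Efna2 was -0.018 with a pseudocount of 10, -0.023 with quantile normalization, -0.0092 with the covariate, -0.015 without clone B, -0.010 without the replicate block, -0.15 with Slc17a6 alone and -0.034 without the PAG clones. That of Efna3 was 0.012 with a pseudocount of 10, 0.0049 without the block, 0.0033 with Slc17a6 alone and 0.0080 without the PAG clones. That of Efna5 was 0.00023 with a pseudocount of 10 and 0.061 with Gad1 alone, that of Epha3 -0.018 without the replicate block, that of Epha4 -0.0018 without clone B and -0.0075 with Slc17a6 alone, and that of Epha8 0.00048 without the PAG clones.

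Depth is unknown, which limits what a signal of 0 can say. With each clone as the unit, 2 cells per clone and a lone dSC or sSC cell in most means, intervals of the tissue and driver differences were wide.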
